A study of Mus musculus with 6 samples.

Results

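Stefin A and neutrophil granule genes, 10 of the 23260 genes counted in E14 embryonic submandibular glands (eSMGs), were chosen by name on the measured difference in their counts between AMD3100-treated and control libraries. They are the stefin A genes BC100530, Stfa1, Stfa2 and Stfa3, the alarmin genes S100a8 and S100a9, and the neutrophil granule genes Ngp, Ltf, Camp and Mpo. These differences are therefore given as a description, with standard errors and without p-values.

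All eSMGs came from mouse embryos of the ICR strain at embryonic day 14 and were cultured ex vivo for 6 h. Control eSMGs were compared with eSMGs given AMD3100 at 50 µM, which blocks the chemokine receptor CXCR4. Each group had 3 tubes, each pooling up to 10 eSMGs, and what the control medium carried in place of AMD3100 was not given in the sources used here. The labels do not say whether the tubes came from separate litters or cultures, and the study's methods speak only in general of independent experiments, so p-values measure the spread between these tubes, which may be technical. Reads of 50 bp from the 3′ end of transcripts were counted per gene symbol, with totals of 11532946, 13127539 and 10869528 counts in control replicates 1 to 3 and 14393031, 11358828 and 9051595 in AMD3100 replicates 1 to 3. Levels are in CPM, counts scaled to a common library total, after TMM normalization, which adjusts that total by a trimmed mean of the gene ratios between libraries, and a level of 3 counts, used here as the floor, stood between 0.173 and 0.368 CPM. It allows for counting error alone, because PCR copies of a molecule are counted as separate reads.

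The replicate 3 libraries of both groups stood apart from the other 4. On the first principal component of log2 CPM, which held 38.2% of the variance, they lay at 84.8 (control) and 80.8 (AMD3100), while the others lay between -78.7 and -17.4. The fold changes of the stefin A, granule and alarmin genes that were tested are therefore also given for replicates 1 and 2 alone.

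Stefins A are small cytosolic inhibitors that block cysteine cathepsins, the papain-like proteases of lysosomes, and the mouse carries a cluster of near-identical copies in tandem. Neutrophils fill their granules in order as they mature, with myeloperoxidase in the early azurophil granules and lactoferrin, cathelicidin and neutrophilic granule protein in the later specific granules. S100a8 and S100a9 encode the subunits of calprotectin, which is abundant in the neutrophil cytosol and is also made by stressed or differentiating squamous epithelium.

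The stefin copies resemble each other so closely that their reads could be shared. The last 99 coding bases of each, which encode 32 residues and the stop codon and lie in the last of 3 exons, are shown because 3′ reads start near them. They were read from the NCBIM37 genome with GENCODE vM1 transcripts, and capitals mark the bases that differ from BC100530.

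BC100530: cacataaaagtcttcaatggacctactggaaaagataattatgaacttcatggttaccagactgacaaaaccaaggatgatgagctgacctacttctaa
Stfa1: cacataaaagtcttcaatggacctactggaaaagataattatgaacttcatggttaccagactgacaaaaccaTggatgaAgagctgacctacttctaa
Gm1975: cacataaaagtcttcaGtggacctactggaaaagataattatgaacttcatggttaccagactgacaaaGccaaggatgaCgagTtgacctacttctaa
Stfa2: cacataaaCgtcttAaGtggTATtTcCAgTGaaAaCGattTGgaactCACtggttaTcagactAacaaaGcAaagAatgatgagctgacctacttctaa
Stfa2l1: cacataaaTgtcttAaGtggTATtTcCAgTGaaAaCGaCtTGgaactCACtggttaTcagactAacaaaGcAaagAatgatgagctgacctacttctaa
Stfa3: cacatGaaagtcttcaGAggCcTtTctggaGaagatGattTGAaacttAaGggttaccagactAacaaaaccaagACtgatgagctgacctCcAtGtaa

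These stretches lie on chromosome 16 of NCBIM37, at chr16:36359546-36359644 on the minus strand for BC100530, chr16:36285283-36285381 on the plus strand for Stfa1, chr16:36404113-36404211 on the minus strand for Stfa2 and chr16:36450695-36450793 on the minus strand for Stfa3. Stfa1 differed from BC100530 at 2 of the 99 bases (98.0% identity), and at 6 of the 294 bases of the whole coding sequence. Gm1975, a neighbouring copy that is not among the 10 genes, differed from BC100530 at 4 bases. Stfa3 differed at 19 bases and Stfa2 at 24, while Stfa2 and its copy Stfa2l1 differed from each other at 2.

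To measure how far reads could be shared, all 251 reads of 50 bases from the last 300 bases of each transcript were taken. They were matched on both strands to all GENCODE vM1 protein-coding transcripts and to the NCBIM37 genome. Of the BC100530 reads, 86.9% matched another gene within 1 mismatch, 80.1% matched Stfa1 and 78.5% matched Gm1975. Of the Stfa1 reads, 80.1% matched another gene, and 53.8% of the Stfa2 reads did, all of the latter in Stfa2l1. Reads of Stfa3, S100a8, S100a9, Ngp, Ltf, Camp and Mpo matched no other gene (0% each). The counts of BC100530 and Stfa1, and those of Stfa2, are therefore uncertain as to the copy they came from, while those of Stfa3 and the 6 granule and alarmin genes are not affected by this sharing. How the authors' counting treated a read with several best places was not given in the sources used here, nor was whether strand was used. GENCODE vM1 also places Gm15845 over BC100530, Gm11505 over Mpo and a U6 gene over Stfa2, each on the opposite strand.

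**Figure D1:**
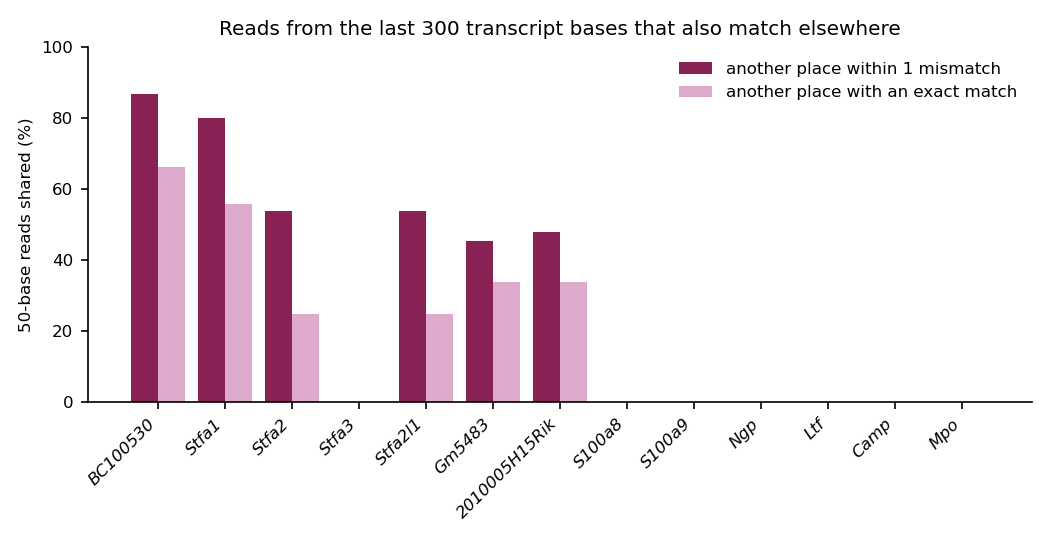
Share of 50-base reads (%, from the last 300 bases of each transcript) that also match another gene, within 1 mismatch (dark bars) or exactly (light bars), for the 10 genes and 3 further stefin copies. BC100530 reaches 86.9% and Stfa1 80.1%, while Stfa3 and the 6 granule and alarmin genes have no bar because none of their reads is shared.

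All 4 stefin A genes had a higher level in AMD3100-treated eSMGs, and in 3 of them every AMD3100 library stood above every control library. For comparison, 3.28% of the 13610 genes tested had all AMD3100 libraries above all control libraries and 4.17% had all below, as 0 of the 10 genes did. Regardless of p, 6 of the 9 that were tested had a fold change over 1.5 upwards, where 10.2% of all genes did, and 1 had it downwards, where 12.9% did. Since the genes were chosen on this contrast, nothing was read from these shares. Two-sided edgeR quasi-likelihood tests over all genes gave 0 genes with an adjusted p under 0.05 (lowest adjusted p 1.0) and 228 genes with an unadjusted p under 0.05, each of which also had a fold change over 1.5. Of these 54 were higher (0.397% of the genes tested) and 174 lower (1.28%), and BC100530 and Stfa1 were among the 54. With the replicate number as a block, 203 genes passed the same thresholds as higher (1.49%) and 395 as lower (2.9%), with 3 genes past the adjusted threshold (0.022%), and BC100530 and Stfa3 were among the higher while Stfa1 was not.

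BC100530 (chr16:36359468-36367834, minus strand) stood at 9.02, 14.9 and 12.5 CPM in control replicates 1 to 3 and at 29.6, 36.0 and 20.1 CPM in AMD3100 replicates 1 to 3. The groups did not overlap, and AMD3100 replicate 3 was the lowest of its group. The mean was 12.1 ± 2.97 CPM in control and 28.6 ± 8.0 CPM in AMD3100-treated eSMGs (SD, n = 3), a log2 fold change of 1.24 (SE 0.38) or 2.36-fold. With replicates 1 and 2 alone the log2 fold change was 1.44 (SE 0.40).

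Stfa1 (chr16:36277213-36285457, plus strand) rested on few control reads, with 5, 13 and 7 counts in control against 93, 48 and 13 counts in AMD3100 replicates. Its levels were 0.438, 0.947 and 0.698 CPM in control and 5.36, 4.42 and 1.6 CPM in AMD3100-treated eSMGs. The groups did not overlap, but AMD3100 replicate 3 lay much nearer to the controls than the other AMD3100 libraries did. The log2 fold change was 2.43 (SE 1.03). It was 2.79 (SE 1.5) with replicates 1 and 2 alone and 2.32 (SE 1.30) with the replicate block, each with a wide error. Given how far the 2 sequences coincide, it cannot be told apart from these counts how much of the Stfa1 level was BC100530 reads. The ratio of BC100530 to Stfa1 counts, which rests on the few control counts above, was 20.6, 15.8 and 17.9 in control and 5.53, 8.15 and 12.6 in AMD3100 replicates. Every control ratio was above every AMD3100 ratio.

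Stfa3 (chr16:36450623-36455478, minus strand), whose reads were not shared, stood at 7.18, 8.45 and 17.5 CPM in control and at 19.2, 19.2 and 22.5 CPM in AMD3100-treated eSMGs. The groups did not overlap, though control replicate 3 came close to the AMD3100 libraries. The means were 11 ± 5.6 and 20.3 ± 1.89 CPM (SD, n = 3), a log2 fold change of 0.88 (SE 0.43), which was 1.29 (SE 0.48) with replicates 1 and 2 alone and 0.99 (SE 0.34) with the replicate block. Leaving out each library in turn moved it between 0.64 (without control replicate 1) and 1.38 (without control replicate 3). The ratio of BC100530 to Stfa3 counts was 1.26, 1.77 and 0.714 in control and 1.54, 1.88 and 0.896 in AMD3100 replicates, so that the replicate 3 libraries had the lowest ratio in both groups.

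Stfa2 (chr16:36404037-36421006, minus strand) had 11, 0 and 4 counts in control and 59, 25 and 0 counts in AMD3100 replicates. AMD3100 replicates 1 and 2 stood above all controls, while AMD3100 replicate 3 had none, and the groups overlapped. The log2 fold change was 2.06 (SE 1.87), and 2.55 (SE 2.29) with replicates 1 and 2 alone.

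**Figure D2:**
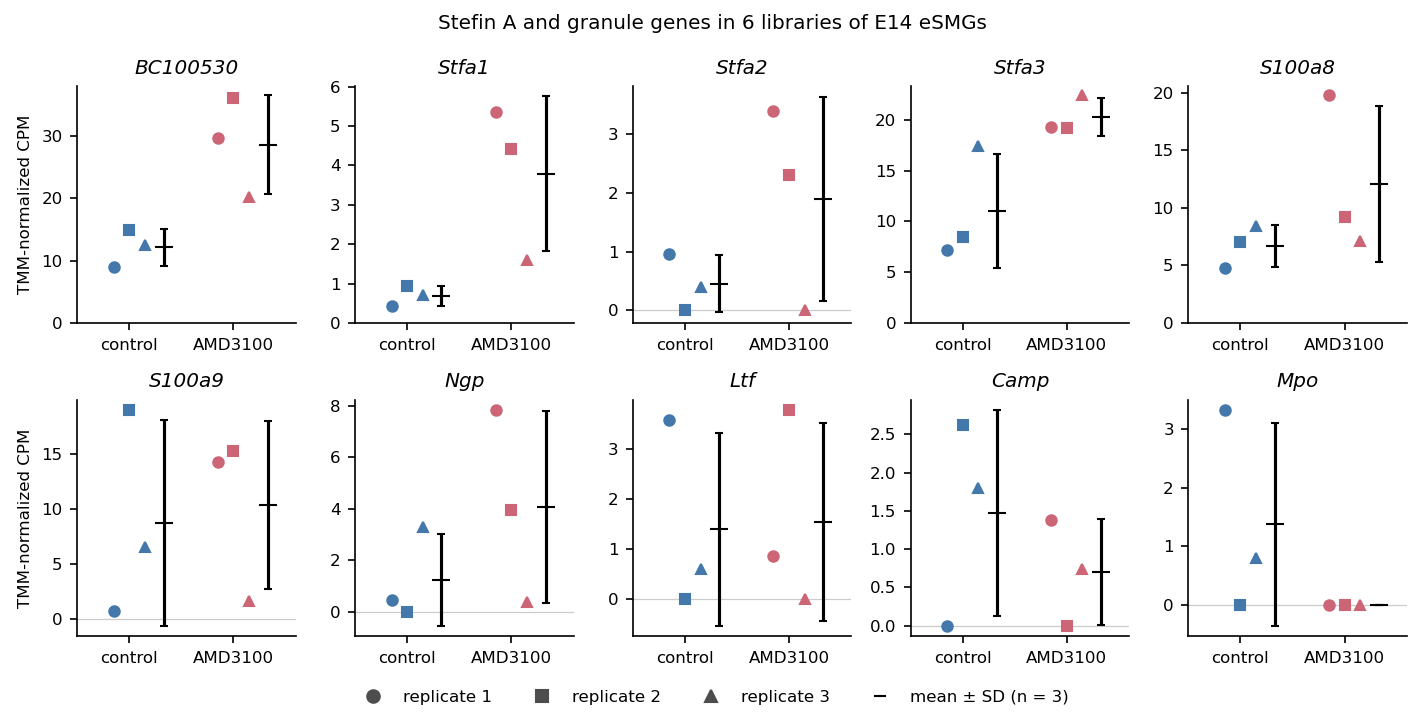
TMM-normalized CPM of the 10 genes in each library (y axis, own scale for each gene), with control in blue, AMD3100 in red, the symbol giving the replicate number and the black bar the mean ± SD (n = 3). BC100530, Stfa1 and Stfa3 have every AMD3100 library above every control library, and Mpo is at 0 in all 3 AMD3100 libraries.

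Because the copies share reads, the 4 stefin A genes were also summed, a quantity that does not change when a read is moved among them. Reads shared with Gm1975 or Stfa2l1 could still enter or leave it. So could reads shared with Csta (8.8% of the BC100530 reads within 1 mismatch) or with Gm4758, of whose reads 9.5% matched Stfa2. The sum was 17.6, 24.3 and 31.0 CPM in control and 57.6, 61.9 and 44.2 CPM in AMD3100-treated eSMGs. Every AMD3100 library stood above every control library, by a ratio of means of 2.25 (log2 1.17). BC100530 took between 40.2% and 61.4% of the summed stefin counts in all 6 libraries, and Stfa3 between 31.0% and 56.3%. The Stfa1 share was 2.49%, 3.89% and 2.25% in control and 9.30%, 7.14% and 3.61% in AMD3100 replicates. Leaving out each library in turn gave log2 ratios of the sum between 0.97 and 1.38, and replicates 1 and 2 alone gave 1.51.

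Further copies of the cluster, from a list of 14 symbols that mixes older and newer names, were present for 6 genes. Of these, 3 were tested and 0 passed an unadjusted p under 0.05 with a fold change over 1.5 by edgeR. BC117090, another stefin A copy, had 5, 12 and 7 counts in control and 75, 61 and 6 counts in AMD3100 replicates, a log2 fold change of 2.39 (SE 1.14). It passed the unadjusted threshold by DESeq2 (2.41, SE 1.06) and in edgeR without AMD3100 replicate 3 (2.86, SE 1.26), and stood at 2.89 (SE 1.51) with replicates 1 and 2 alone. Its high libraries, AMD3100 replicates 1 and 2, were also those of Stfa1 and Stfa2, and AMD3100 replicate 3 was level with the controls. Csta1, also of this family, moved in no common direction, with 5.87, 1.97 and 2.49 CPM in control and 0.691, 4.98 and 2.58 CPM in AMD3100-treated eSMGs (log2 fold change -0.33, SE 0.97). Outside the rule for naming genes, and chosen after their values were seen, Gm5483 had a log2 fold change of 2.22 (SE 1.92) and Stfa2l1, the copy that shares reads with Stfa2, had 14 counts in AMD3100 replicate 1 and 1 count in control replicate 1 and none elsewhere. All 6 copies together summed to 6.39, 2.84 and 5.58 CPM in control and to 8.24, 12.5 and 4.67 CPM in AMD3100-treated eSMGs, and the groups overlapped. With these 6 added to the 4 stefin A genes the sum was 24, 27.2 and 36.6 CPM in control and 65.8, 74.5 and 48.9 CPM in AMD3100-treated eSMGs, a log2 ratio of means of 1.11.

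The promoters of the stefin genes were alike as well. Of the 10 genes, 9 were found by symbol among the RefSeq promoters of GRCm38.p6, and BC100530 was not. The 100 bases from 80 before to 20 after the annotated start are shown for the 3 stefins, since these genes had AMD3100-high libraries in common, and capitals mark the motifs GAGGAGGAG and TTTAAA, which were picked after the sequences had been seen.

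Stfa1: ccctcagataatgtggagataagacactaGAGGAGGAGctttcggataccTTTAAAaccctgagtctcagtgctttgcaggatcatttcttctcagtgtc
Stfa2: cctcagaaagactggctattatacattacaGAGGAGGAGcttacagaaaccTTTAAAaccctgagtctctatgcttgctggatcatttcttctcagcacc
Stfa3: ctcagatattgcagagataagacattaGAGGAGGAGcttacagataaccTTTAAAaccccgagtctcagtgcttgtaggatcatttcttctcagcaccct

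In GRCm38.p6 these windows are chr16:36277068-36277167 on the plus strand for Stfa1, chr16:36408344-36408443 on the minus strand for Stfa2 and chr16:36455373-36455472 on the minus strand for Stfa3. Searched on both strands of 32851 RefSeq promoters of 300 bases, TTTAAA was found in 13.2%, GAGGAGGAG in 3.37% and both together in 0.265%. Among the 9 promoters, both were found in Stfa1, Stfa2 and Stfa3 and in none of the 6 granule and alarmin genes. Outside these 9, the same window of Stfa2l1 also held both, so the pair was not limited to the stefins shown. Stfa2l1 had 14 counts in AMD3100 replicate 1, 1 count in control replicate 1 and none elsewhere. Whether the pair of motifs goes with a higher level in AMD3100-treated eSMGs was not tested. The motif GAGGAAGT, the core bound by PU.1 and other ETS factors, was found in S100a8 and Mpo and in 3.20% of all promoters. TTGCNNAA, a C/EBP core, was found in Stfa1, S100a9, Ngp and Ltf and in 10.8% of all promoters. A match is a description of the letters and not a site of binding.

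The 6 granule and alarmin genes, by contrast, had overlapping groups in all 5 of the genes tested, with 4 higher and 1 lower in AMD3100-treated eSMGs. None of the 5 passed the unadjusted threshold, where 1.68% of all genes tested did in either direction. Their summed level was 12.8, 28.6 and 21.3 CPM in control and 44.2, 32.2 and 9.82 CPM in AMD3100-treated eSMGs. AMD3100 replicate 1 was the highest library and AMD3100 replicate 3 the lowest of all 6. The log2 ratio of means was 0.46, and without AMD3100 replicate 1 it was 0.0010. With replicates 1 and 2 alone it was 0.88.

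S100a8 (chr3:90472993-90473956, plus strand) stood at 4.73, 6.99 and 8.38 CPM in control and at 19.8, 9.22 and 7.12 CPM in AMD3100-treated eSMGs. AMD3100 replicate 1 was far above the other 5 libraries, while AMD3100 replicate 3 lay among the controls. The log2 fold change was 0.85 (SE 0.53) over all libraries, 0.28 (SE 0.61) without AMD3100 replicate 1 and 1.30 (SE 0.60) with replicates 1 and 2 alone.

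S100a9 (chr3:90496554-90499643, minus strand), its partner subunit, had 8, 260 and 65 counts in control and 248, 165 and 13 counts in AMD3100 replicates. These correspond to 0.700, 18.9 and 6.48 CPM and to 14.3, 15.2 and 1.6 CPM, so that control replicate 2 was the highest library of all. The log2 fold change was 0.25 (SE 1.05), or 0.57 (SE 0.94) with replicates 1 and 2 alone, and leaving out each library in turn moved it between -0.30 (without control replicate 1) and 1.53 (without control replicate 2). The calprotectin subunits did not keep a common ratio. S100a8 counts were 6.75, 0.369 and 1.29 times those of S100a9 in control and 1.39, 0.606 and 4.46 times in AMD3100 replicates.

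Ngp (chr9:110322254-110325514, plus strand), a cystatin-related protein of the specific granule, had 5, 0 and 33 counts in control and 136, 43 and 3 counts in AMD3100 replicates. AMD3100 replicates 1 and 2 stood above all controls and AMD3100 replicate 3 did not. The log2 fold change was 1.72 (SE 1.6), and 0.80 (SE 2.07) without AMD3100 replicate 1. It was 4.19 (SE 1.95) without control replicate 3 and 4.73 (SE 1.80) with replicates 1 and 2 alone. These last values rest on 5 and 0 control counts.

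Ltf (chr9:110921796-110945270, plus strand), the iron-binding lactoferrin, had 41, 0 and 6 counts in control and 15, 41 and 0 counts in AMD3100 replicates. No group was higher, with a log2 fold change of 0.15 (SE 1.89) that ran from -1.61 without AMD3100 replicate 2 to 2.34 without control replicate 1 and was 0.36 (SE 2.11) with replicates 1 and 2 alone. Camp (chr9:109749889-109751970, minus strand), the cathelicidin antimicrobial peptide, had 0, 36 and 18 counts in control and 24, 0 and 6 counts in AMD3100 replicates. Its log2 fold change was -1.04 (SE 1.84), and -0.90 (SE 2.79) with replicates 1 and 2 alone, again with overlapping groups. Although Ngp, Ltf and Camp are made together in maturing neutrophils, their highest libraries were AMD3100 replicate 1 for Ngp, AMD3100 replicate 2 for Ltf and control replicate 2 for Camp.

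Mpo (chr11:87607083-87617915, plus strand), the peroxidase of the azurophil granule, had 38, 0 and 8 counts in control and 0 counts in all 3 AMD3100 replicates, and did not pass the filter on low counts. Against the floor of 3 counts in each AMD3100 library, the mean level was at least 5.04-fold lower in AMD3100-treated eSMGs, and at least 1.46-fold lower without control replicate 1, which held most of the counts. Control replicate 2 was also at 0, so the groups overlapped. In all, 5 of the 10 genes (Stfa2, Ngp, Ltf, Camp and Mpo) had 0 counts in at least 1 library.

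**Figure D3:**
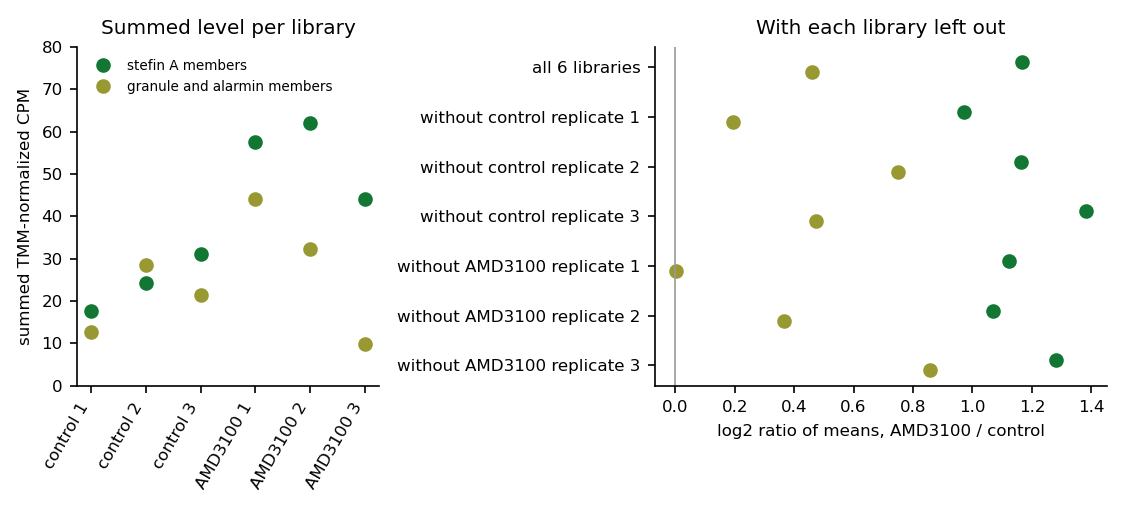
Left, summed TMM-normalized CPM of the 4 stefin A genes (green) and the 6 granule and alarmin genes (olive) in each library; right, the log2 ratio of the group means with all 6 libraries and with each library left out. The stefin ratio stays between 0.97 and 1.38, while the granule and alarmin ratio runs from 0.0010 without AMD3100 replicate 1 to 0.86 without AMD3100 replicate 3.

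The label of neutrophil granule genes was compared with other genes of that cell. Elane and Fcnb, further granule genes, and Gfi1, a lineage factor, were at 0 counts in all 6 libraries. The symbol Ly6g was not found among those counted, so this marker could not be measured here. Outside the rule for naming genes, and chosen after their values were seen, Csf3r, the receptor of the neutrophil growth factor, reached at most 0.598 CPM, and Ctsg, Chil3 and Itgb2l had counts in AMD3100 replicate 1 only, with 8, 16 and 5 counts. Other genes of the same lists were counted, also chosen after their values were seen. Mmp9, a gelatinase stored in neutrophil granules, reached 19.4 CPM in its highest library, AMD3100 replicate 2. Padi4, Cd177, Itgam, Cxcr2 and Fpr2 were each highest in a control library. Padi4 reached 3.28 CPM, Itgam 2.91 CPM and Fpr2 2.26 CPM in control replicate 2. Cd177 reached 3.15 CPM in control replicate 1 and Cxcr2 2.79 CPM in control replicate 3. The markers thus gave no single picture, and the 6 genes are called granule and alarmin genes by their names, with no cell type assigned. In these bulk samples, fewer cells of a type and less RNA per cell cannot be told apart.

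Of 16 other neutrophil granule genes, 9 were tested, with 5 higher and 4 lower, 0 past the unadjusted threshold and a median log2 fold change of 0.01, beside 0.02 for all genes tested. Their summed level was 124, 130 and 161 CPM in control and 97.5, 128 and 122 CPM in AMD3100-treated eSMGs. Cyba, a subunit of the phagocyte oxidase that other cells also express, was the most abundant by mean level and had a log2 fold change of 0.08 (SE 0.38), and Anxa1, annexin A1, had one of -0.64 (SE 0.61). In control replicates 1 and 2 Anxa1 was the higher of the pair, at 41.2 and 45.2 CPM against 33.6 CPM in each for Cyba. Prtn3, Prss57 and Lcn2 were also chosen after their values were seen. Prtn3, an azurophil protease, stood at 1.66, 1.53 and 2.89 CPM in control and 3.34, 2.95 and 2.33 CPM in AMD3100-treated eSMGs (log2 fold change 0.50, SE 0.88). The related protease Prss57 had a log2 fold change of 0.51 (SE 0.61) and Lcn2, a specific granule protein, -0.28 (SE 1.13). Of 15 neutrophil lineage factors and receptors, 4 were tested, and all 4 had a lower level in AMD3100-treated eSMGs, with 0 past the threshold and a median of -0.31. Their sum was 20.7, 24.3 and 15.2 CPM in control and 14.3, 18.9 and 9.95 CPM in AMD3100-treated eSMGs, led by Ptprc, the pan-leukocyte CD45 (log2 fold change -0.44, SE 0.62), and Spi1, which encodes PU.1 (-0.04, SE 0.68). Both could change sign, Ptprc to 0.05 without control replicate 1, and Spi1 to 0.26 without control replicate 2 and 0.23 without AMD3100 replicate 3.

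**Figure D4:**
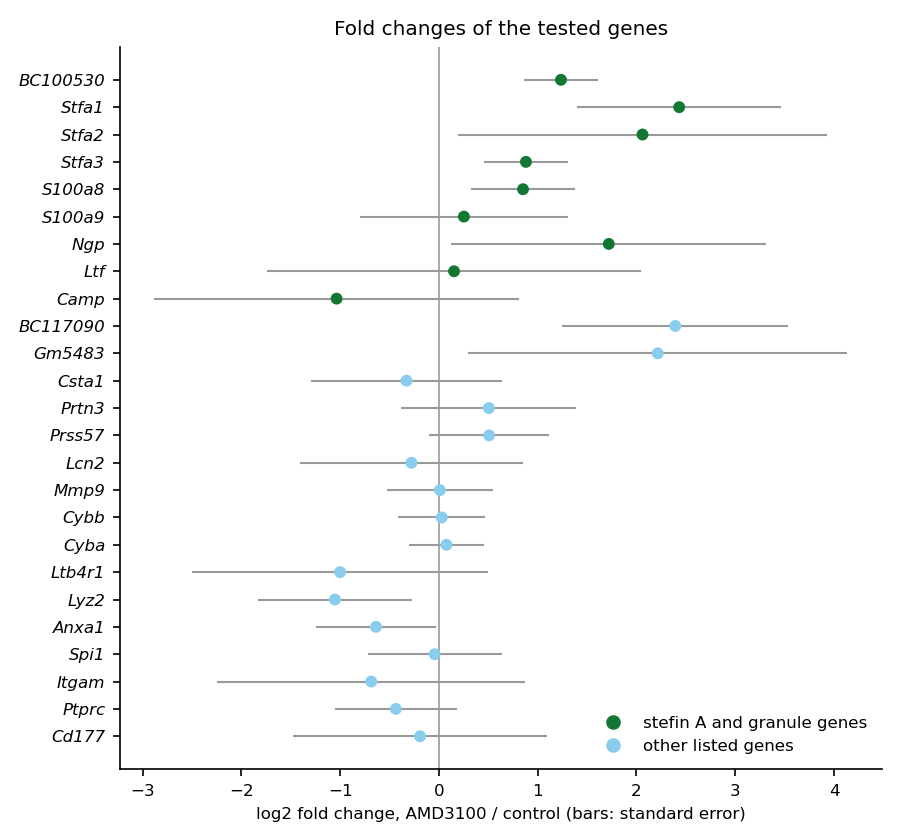
Log2 fold change of AMD3100-treated over control eSMGs (x axis, points) with its standard error (bars) for the 9 tested stefin A, granule and alarmin genes (green) and the tested genes of the other stefin, neutrophil granule and neutrophil lineage lists (light blue). The stefin A genes lie between 0.88 and 2.43, while the 9 other granule genes lie on both sides of 0 (5 higher, 4 lower) and the 4 lineage genes below it.

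Genes of the cysteine cathepsins, the family that includes the proteases stefins block, were measured as well. How far stefin A blocks each of them was not tested. Of 10 cysteine cathepsins, 9 were tested, with 6 higher, 3 lower and a median log2 fold change of 0.25. Only Ctsk, cathepsin K, a collagen-degrading protease best known from osteoclasts, passed the unadjusted threshold among these 9. It was lower, where 1.28% of all genes tested passed as lower. It stood at 13.1, 16.5 and 9.67 CPM in control and 6.22, 3.32 and 3.19 CPM in AMD3100-treated eSMGs, without overlap, a log2 fold change of -1.62 (SE 0.50, edgeR unadjusted p = 0.0104, adjusted p = 1.0). Ctsf, cathepsin F, named after its values were seen, was without overlap the other way, at 5.6, 10.9 and 11.1 CPM in control and 13.3, 17.1 and 13.5 CPM in AMD3100-treated eSMGs, with a log2 fold change of 0.67 (SE 0.42) that did not pass the threshold. The summed level of the 10 was 320, 304 and 415 CPM in control and 305, 314 and 452 CPM in AMD3100-treated eSMGs, mostly from Ctsz and Ctsb. Of 11 other cystatin family genes counted, 2 were tested, and 0 passed the threshold. Cstb, the stefin B gene, had a log2 fold change of -0.65 (SE 0.50), opposite in sign to the stefin A genes, and Cst3, the secreted cystatin C, one of -0.26. With the replicate block Cstb passed the unadjusted threshold as lower, at -0.62 (SE 0.14), as 2.9% of all genes tested did. Without control replicate 3, however, Cstb was at -0.03 (SE 0.43) and Cst3 turned to 0.40 (SE 0.47).

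For the axis that AMD3100 blocks, 0 of 3 genes passed the threshold. Cxcr4, the receptor itself, stood at 28.9, 10.3 and 30.3 CPM in control and 17.7, 15 and 16.2 CPM in AMD3100-treated eSMGs (log2 fold change -0.50, SE 0.44). Its ligand Cxcl12 had a log2 fold change of -0.39 (SE 0.32). Neither gene's change exceeded the spread between tubes by this test.

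Genes of other cells that the glands could hold were set beside the 10 genes. Of 15 suprabasal keratinocyte genes, a layer known to express stefin A, 9 were tested, with 5 higher, 4 lower and 0 past the threshold (median log2 fold change 0.19). Their summed level was 224, 273 and 107 CPM in control and 249, 208 and 284 CPM in AMD3100-treated eSMGs. Krt4 stood at 167, 210 and 41.3 CPM in control and 202, 170 and 151 CPM in AMD3100-treated eSMGs, most of the sum except in control replicate 3. Sprr2a1 was at 0 throughout. The sum was low in control replicate 3, whereas the stefin sum was highest there among the controls. Salivary epithelium genes, all 10 tested, had 6 higher and 4 lower, 0 past the threshold and a median of 0.12, with sums of 1977, 1939 and 1323 CPM in control and 2341, 2027 and 3301 CPM in AMD3100-treated eSMGs, led by Krt15. With the replicate block 2 of the 10 passed the unadjusted threshold as higher, where 1.49% of all genes tested did. Of the 9 gland mesenchyme genes, 3 were higher and 6 lower, with 0 past the threshold. With the block 1 passed as lower, where 2.9% of all genes tested did. The mesenchyme sums were 4240, 4184 and 1937 CPM in control and 4269, 4246 and 1634 CPM in AMD3100-treated eSMGs, led by Col3a1. The epithelial sum was higher in every AMD3100 library than in every control library, but of its 10 genes this held only for Cdh1, E-cadherin, at 337, 302 and 211 CPM in control and 344, 394 and 507 CPM in AMD3100-treated eSMGs. Krt15, a basal keratin, stood at 1042, 1012 and 888 CPM in control and 1367, 1016 and 2472 CPM in AMD3100-treated eSMGs, with overlap. The part of epithelial content in the stefin result was not tested.

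The sums of the macrophage, erythroid and mast cell genes overlapped between the groups. Of 12 macrophage genes, 10 were tested, with 6 higher and 4 lower, 0 past the threshold and a median of 0.06, and their sum was highest in the replicate 3 libraries, at 289 CPM in control and 250 CPM in AMD3100, against 108 to 143 CPM elsewhere. C1qa, a complement subunit of macrophages and the most abundant of them by mean level, stood at 15.8, 14.0 and 123 CPM in control and 23.0, 18.5 and 95 CPM in AMD3100-treated eSMGs. Outside the replicate 3 libraries Csf1r, named after its values were seen, was above it. Csf1r stood there at 43.2 and 26.5 CPM in control and 39.9 and 30.9 CPM in AMD3100-treated eSMGs. Of 10 erythroid genes, all tested, 9 were lower and 1 higher, 0 past the threshold, with a median of -0.39, and Hba-a1 was the most abundant. The 7 mast cell and basophil genes summed to between 0.898 and 3.86 CPM, with Mcpt8 and Fcer1a at 0 throughout and only Cpa3 tested (log2 fold change 1.25, SE 1.57). AMD3100 replicate 1, the highest library for Stfa1, Stfa2, S100a8 and Ngp, was also the highest for this mast cell sum and the most deeply counted library, and the part of either in those 4 levels was not tested.

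Lastly, genes whose log2 CPM followed BC100530 closely over the 6 libraries were listed, out of 13609 others tested. They included Pes1, a ribosome biogenesis factor, with a Pearson correlation of 0.991, Pctp, a phosphatidylcholine transfer protein, with 0.982, Prom1, prominin 1, with 0.981, and Tiam1, a Rac exchange factor, with 0.980. Pes1 stood at 41.6, 49.2 and 44.0 CPM in control and 64.7, 73.7 and 55.8 CPM in AMD3100-treated eSMGs, the same order of libraries within each group as BC100530. Among the 10 genes, Stfa1 was highest at 0.975 (rank 8), S100a8 followed at 0.719 (rank 738) and Stfa3 at 0.708 (rank 796). The values were lower for S100a9 at 0.601, Ngp at 0.549, Stfa2 at 0.446, Ltf at 0.08 and Camp at -0.07. Of the Stfa1 reads, 80.1% matched BC100530 within 1 mismatch, so its value cannot be set beside those of genes without shared reads. The part of shared reads in it was not tested. All these correlations share the 6 libraries and their group difference and are a description only.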

How the data were processed

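Groups and replicate numbers of the 6 libraries of 3′ mRNA were those of the sample labels. The values deposited by the authors were raw read counts, 1 list of gene symbols per library. The submitters' processing notes name Bowtie2, edgeR and mm10, and the annotation, the strand setting and the treatment of reads with several places were not given in the sources used here. Each list had 23282 lines. A symbol was repeated on 44 of them, and 22 repeats with equal counts were dropped. The 10 genes and the gene lists were chosen with earlier results of these data known.

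Counts were TMM-normalized and filtered by filterByExpr (13610 genes kept), and AMD3100 was compared with control by glmQLFit and glmQLFTest in edgeR 4.0.16 (R 4.3.3) with Benjamini-Hochberg adjustment over all genes, condition being the only term. Unadjusted calls took the thresholds of the study's main text (p under 0.05, fold change over 1.5), and the stricter fold change drawn in its volcano plot was not used here. The filter reads the groups, and 9 of the 10 genes passed it. Same-numbered libraries deviated together (correlations 0.185, 0.171 and 0.584), so that the replicate numbers of the labels were taken as pairs in an alternative with a replicate block, although replicates 1 and 2 did so across their numbers as well (0.198 for control 2 with AMD3100 1, and 0.146 for control 1 with AMD3100 2). The fits were tested on simulated data.

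Named genes were the 10 genes, up to 2 of the most abundant and up to 3 past the thresholds in each list, genes at 0 that define a cell type, and the 5 most like BC100530. Some genes that this rule names are not reported here. Alternatives were DESeq2 1.42.0, upper quartile or total count scaling, the filter left out or set to 10 counts in every library, Rn45s left out, the replicate block, the stefins summed into 1 row before the fit, exact read matches and each library left out. Replicates 1 and 2 only was added after seeing the data. Transcripts, coding ends and gene positions came from GENCODE vM1 on NCBIM37, which is not the build of the counts, and promoters from RefSeq on GRCm38.p6. Transcripts of BC117090 were not matched by symbol.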

Additional observations from a re-analysis of the deposited data

How the results depend on the processing

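Against 54 higher and 174 lower genes in the comparison over all genes, DESeq2 gave 95 higher, leaving out the filter 93 higher, the replicate block 203 higher and 395 lower, and replicates 1 and 2 only 267 higher and 346 lower. Leaving out each library in turn gave 34 (without AMD3100 replicate 1) to 316 (without control replicate 3) higher and 115 (without control replicate 2) to 350 (without AMD3100 replicate 3) lower genes, with 101 higher without AMD3100 replicate 3. The count past the adjusted threshold was 0 in edgeR, 5 in DESeq2, 3 with the replicate block and 0 in each of the other alternatives run. BC100530 kept a log2 fold change of 1.04 to 1.44 over the alternatives run on its own counts, and the stefins summed into 1 row before the fit had 1.17. Stfa1 ran from 2.09 to 2.79, Stfa2 from 1.33 to 3.23, Stfa3 from 0.64 to 1.38, S100a8 from 0.28 to 1.30, Ngp from 0.80 to 4.73 and Camp from -1.99 to -0.33, each in its first direction, whereas S100a9 (-0.30 to 1.53) and Ltf (-1.61 to 2.34) took either sign. With the replicate block S100a9 stood at 0.36, Ngp at 3.22 and Ltf at -0.84. Which of the 10 genes lay past the unadjusted thresholds is a description only, since they were chosen on this contrast. Stfa1 no longer did so without the filter, with the replicate block, with any single library left out or with replicates 1 and 2 only. Stfa3 came to do so with the block, without control replicate 3 and with replicates 1 and 2 only, Ngp with replicates 1 and 2 only, and Mpo, as lower, without the filter. The sum of the stefin A genes had log2 ratios of 0.97 to 1.51 and that of the granule and alarmin genes of 0.0010 to 0.88. Shared reads counted as exact matches fell to 66.1% for BC100530, 55.8% for Stfa1 and 24.7% for Stfa2. Of the other named genes, BC117090 passed the thresholds by DESeq2 (2.41) and without AMD3100 replicate 3 (2.86). Cstb passed with the block (-0.62) and without AMD3100 replicate 3 (-1.20), but was at -0.03 without control replicate 3. Krt15 passed with the block (0.62) and without AMD3100 replicate 2 (0.98), and Anxa1 with replicates 1 and 2 only (-0.71). C1qa ran from -1.31 (without AMD3100 replicate 3) to 1.63 (without control replicate 3). The cause of these moves was not tested. Counting error weighs most on Stfa1, Stfa2, Ngp, Ltf, Camp and Mpo, which had the lowest counts of the 10 genes.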

Other observations

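Within the cystatin family, Ahsg, Kng1 and Fetub, which encode plasma proteins made mainly by the liver, were seen almost only in the replicate 3 libraries. They were chosen after their values were seen. Ahsg stood at 62.4 CPM in control replicate 3 and 27.6 CPM in AMD3100 replicate 3 and had 0 counts in the other 4 libraries. Kng1 likewise stood at 14.4 and 8.72 CPM there and at 0 elsewhere, and Fetub at 3.19 and 2.46 CPM there and at no more than 0.175 CPM elsewhere. Lyz2, the lysozyme of macrophages and neutrophils, was high in the same libraries, at 61.8 CPM in control replicate 3 and 22.2 CPM in AMD3100 replicate 3 against 8.06 to 10.6 CPM in the other 4. The sum of the 6 granule and alarmin genes was the lowest of all in AMD3100 replicate 3, at 9.82 CPM, and between those of the other controls in control replicate 3, at 21.3 CPM. Ackr3, the scavenging receptor of CXCL12, stood at 5.78, 0.728 and 1.70 CPM in control and at 6.22, 6.73 and 7.0 CPM in AMD3100-treated eSMGs (log2 fold change 1.28, SE 0.82, edgeR unadjusted p = 0.155, adjusted p = 1.0).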
